A study of Arabidopsis thaliana with 6 samples.

Results

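The genes described here encode intracellular immune receptors of Arabidopsis thaliana: nucleotide-binding leucine-rich repeat receptors (NLRs), the helper NLRs that act downstream of them, and small proteins with a TIR (Toll/interleukin-1 receptor) domain. They were chosen by gene identifier from a list of such receptors, without a threshold on expression, and make up 50 of the 32548 genes in the deposited table. By role, 25 are sensor NLRs with an N-terminal TIR domain (TNLs), 9 are sensor NLRs with an N-terminal coiled coil (CNLs), 5 are helper NLRs, and 11 were placed among the proteins with a TIR domain but without leucine-rich repeats (TIR-only and TIR-NB). The RefSeq annotation of TAIR10.1 names a disease resistance or TIR-domain product, or the gene by its own name, for each of them except CHS3, which it calls a DA1-related protein. For AT5G46490, placed in the last group, it names a TIR-NBS-LRR protein of 858 amino acids, so the placement of this gene is uncertain.

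As background, sensor NLRs detect pathogen effectors inside the cell, either directly or by watching a plant protein that the effector modifies. The TIR domain of an activated TNL is an enzyme that consumes NAD and makes small signalling molecules, which are perceived by EDS1 together with PAD4 or SAG101. EDS1-PAD4 works with helper NLRs of the ADR1 family and EDS1-SAG101 with those of the NRG1 family, whereas some CNLs, such as ZAR1, assemble into a membrane channel on their own. Excess activity of these receptors stunts the plant and can kill cells, and several of them, such as SNC1, were named for mutants with constitutive defence, so the plant holds their levels within limits.

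RNA-seq was performed on plants aged 20 days, 2 libraries for each of 3 genotypes in the Col-0 background: wild-type plants, the hda19 mutant, and the triple mutant hdip1/2/3. HDA19 is a histone deacetylase, and HDIP1, HDIP2 and HDIP3 are its interaction partners. The hda19 plants came from a T-DNA insertion line of the SALK collection. The HDIP genes were mutated by genome editing with CRISPR-Cas9, and the triple mutant combines alleles of all 3. The labels name no treatment or pathogen, and the replicates were independent according to the methods. The comparison asks how losing HDA19, or the subunits that associate with it, alters the transcripts of these receptors in plants without a named challenge.

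The deposited values are read counts per gene that the authors had adjusted to a common library size (called adjusted read counts below). Whole reads recovered from them amounted to between 43906641 and 48407739 per library. Genes with 2 recovered reads (650 to 762 per library) outnumbered those with 1 (358 to 416), and whether the mates of a pair were counted separately was not tested, so the number of independent fragments may be lower than that of reads. Transcripts of the mutated genes were present in all libraries: HDA19 (AT4G38130) had 4298 and 4416 adjusted counts in wild-type plants and 2832 and 4561 in hda19 plants, the second of which lay above both wild-type libraries (log2 fold change -0.28, standard error 0.21), and HDIP1, HDIP2 and HDIP3 had log2 fold changes of 0.25, 0.37 and 0.08 in hdip1/2/3. The genotype labels are therefore not tested by these levels, because neither kind of mutation has to reduce the RNA. Markers of leaf tissue summed to between 737094 and 1420410 adjusted counts per library (2 of 2 detected), whereas those of roots summed to between 3.16 and 20.9 (1 of 4 at 0), those of flowers to between 103 and 194 (0 of 4 at 0) and those of seeds were all at 0 (2 of 2). By these markers the material labelled seedlings was mainly shoot. Root markers summed to 16.1 and 4.06 in wild-type plants, 3.16 and 20.9 in hda19 plants and 5.58 and 15.5 in hdip1/2/3 plants, so their levels overlapped between genotypes. Leaf markers summed to 830182 and 1120290 in the wild type, and overlapped it in hda19 (1099220 and 737094), but in hdip1/2/3 the sum was higher in both libraries (1154420 and 1420410). Of the 2 leaf markers only RBCS1A lay above both wild-type libraries. CAB2 overlapped them, with 293710 and 365703 in hdip1/2/3 against 208407 and 300559 in the wild type. The part of the leaf-marker difference in the results below was not tested. In such bulk samples, a lower number of cells expressing a receptor and less of its RNA per cell cannot be told apart.

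The test covered genes whose mean reached 1 adjusted count in any genotype, 23685 in all, and 49 of the 50 receptor genes were among them. The remaining one, RPS2 (AT4G26090), a CNL that watches the host protein RIN4, was listed at 0 in all 6 libraries. Its locus is annotated as overlapping a noncoding gene on the opposite strand, AT4G26095, over 3285 bp, and that gene was listed at 0 as well. The zero is therefore a value of the table and gives no expression level for RPS2. The other members were well covered, with 44 of 49 at 100 or more adjusted counts in every library.

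In hda19, the TNL gene RPP4 rose 1.97-fold and no receptor gene fell at an adjusted P value under 0.05. In hdip1/2/3, the TIR-only gene AT1G57630 rose 3.25-fold and again no receptor gene fell at this threshold. Thus 1 of 49 members was called in each mutant, by limma-trend on log2(value + 1) with Benjamini-Hochberg adjustment over all genes tested. Among all genes, 2.15% were called higher and 0.688% lower in hda19, and 4.35% higher and 2.82% lower in hdip1/2/3, so the share of members called, in either mutant, was no larger than that of all genes called higher. By a second rule, a log2 fold change beyond 1 with an unadjusted P value under 0.05, AT1G57630 was higher in both mutants and the CNL gene RPP13 was lower in hdip1/2/3. This rule called 4.65% of all genes higher and 2.09% lower in hda19, and 4.92% higher and 4.07% lower in hdip1/2/3. Leaving out any of the 6 libraries, or fitting each mutant with the wild type alone, left 0 genes of the whole table called in hda19 or hdip1/2/3 at the adjusted threshold, with 2777 to 7174 genes at an unadjusted P value under 0.05. With 2 libraries a side, the smallest P value of an exact permutation test of a single gene is 0.333.

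The members did not all move one way. Their median log2 fold change in hda19 was 0.11, with 34 positive and 15 negative values between -0.47 and 1.45. The median in hdip1/2/3 was -0.42, with 16 positive and 33 negative values between -1.08 and 1.70. The median over all genes tested was 0 in both. In terms of separation between libraries, 14 members lay above both wild-type libraries in both hda19 libraries and 3 lay below, against 23.7% and 24.1% of all genes. Of the members in hdip1/2/3, 10 lay above and 17 below, against 30.7% and 31.3% of all genes. The members' counts were 28.6% and 6.12% of those tested in hda19, and 20.4% and 34.7% in hdip1/2/3. The median in hdip1/2/3 was -0.19 without replicate 2 of hdip1/2/3 and -0.20 without replicate 1 of the wild type, and in hda19 it was -0.07 without replicate 2 of hda19, -0.09 without replicate 2 of the wild type, 0.28 without replicate 1 of hda19 and 0.34 without replicate 1 of the wild type.

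**Figure D1:**
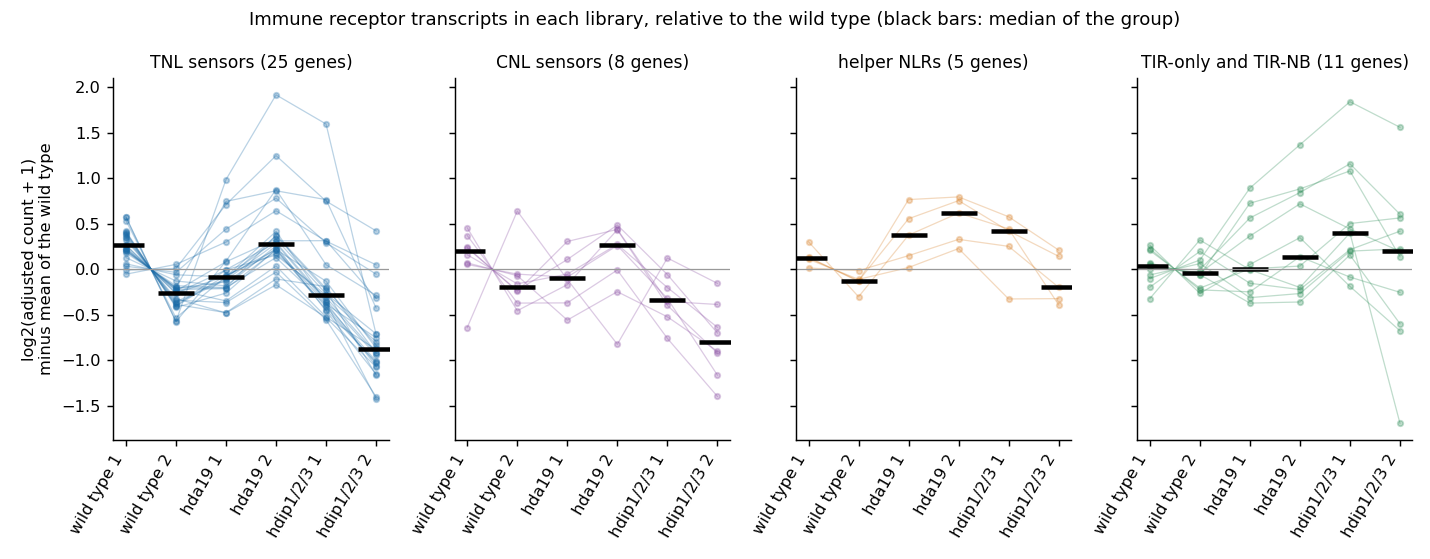
Difference of log2(adjusted count + 1) from the wild-type mean (y axis) in each of the 6 libraries (x axis) for the 49 tested receptor genes, split by role, each line being a gene and each black bar the median of the group. The median of the 25 TNL genes goes from 0.26 in replicate 1 of the wild type to -0.88 in replicate 2 of hdip1/2/3, while the 5 helper NLRs have medians of 0.38 and 0.62 in hda19.

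Transcript length moved with these values. The receptor transcripts are long, with a median of 3644 nt (713 to 5674 nt) against 1615 nt over all genes tested. Among the 33 members of 3000 nt or more, replicate 1 exceeded replicate 2 in 30 in the wild type and in 33 in hdip1/2/3, whereas replicate 2 exceeded replicate 1 in 32 in hda19, and replicate 2 of hdip1/2/3 was the lowest of the 6 libraries in 28. The same order was seen across the genome: among all 2348 tested genes of this length, replicate 1 was higher in 90.25% in the wild type, in 88.2% in hdip1/2/3 and in 13.9% in hda19. Their median log2 fold change in hdip1/2/3 was -0.57, compared with -0.54 for the 33 members. Across the 49 members, the log2 fold change in hdip1/2/3 and the log2 transcript length had a Pearson correlation of -0.66 (-0.26 over all genes), and that in hda19 had one of -0.16 (-0.02 over all genes). These are descriptions over genes that share the same 6 libraries.

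**Figure D2:**
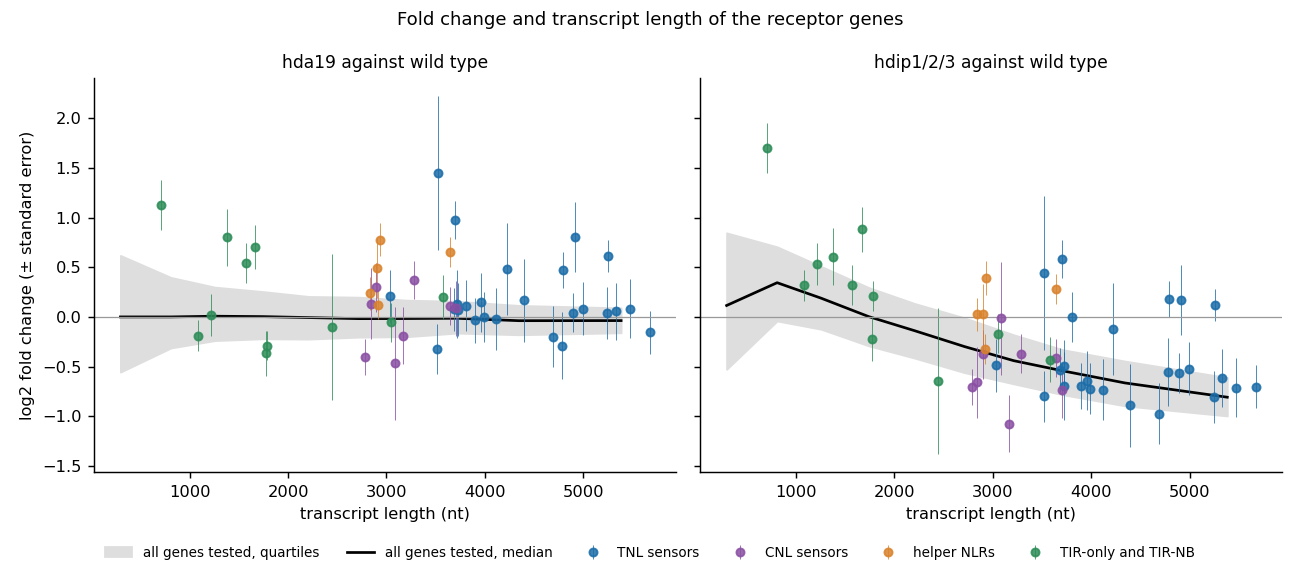
Log2 fold change with its standard error (y axis) against transcript length in nt (x axis) for the 49 tested receptor genes in hda19 (left) and hdip1/2/3 (right), coloured by role, with the median (line) and quartiles (grey) of all genes tested. In hdip1/2/3 the line for all genes declines from 0.34 between 500 and 1000 nt to -0.81 between 5000 and 6000 nt, and most TNL genes lie near it, whereas RPP4, RPP5 and AT5G41750 lie above it.

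The comparison was therefore also made after the trend of each library on transcript length and GC content had been removed. Here 6 members were called higher and 0 lower in hda19, against 4.96% higher and 3.21% lower of all genes, and 8 were called higher and 1 lower in hdip1/2/3, against 6.51% higher and 3.89% lower. The median of the members became 0.10 in hda19 and 0.09 in hdip1/2/3. There, 14 of 49 members changed sign in hdip1/2/3, and none of them was called before or after. The genes called higher in hda19 were RPP4, RPP5, AT5G41750, ADR1, ADR1-L1 and AT1G57630, and those in hdip1/2/3 were RPP4, RPP5, AT5G41750, AT3G44400, ADR1, ADR1-L1, AT1G57630 and AT1G66090, while RPP13 was called lower. The comparisons share the wild-type libraries, so a gene called in both is not called independently. Whether the length trend belongs to the libraries or to the mutants was not tested. Values with the trend kept are given first throughout, and those with it removed are named as such.

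Of the 25 TNL genes, 1 rose and 0 fell in hda19, with a median log2 fold change of 0.08, and 0 rose or fell in hdip1/2/3, with a median of -0.57. Among all genes, 2.15% were called higher in hda19 and 4.35% in hdip1/2/3, and 0.688% and 2.82% lower. With the trend removed, 3 TNL genes were called higher in hda19 and 4 in hdip1/2/3 (all genes 4.96% and 6.51%). None of the 25 was then called lower (all genes 3.21% and 3.89%). The TNL medians became 0.09 and 0.08, so that the sign in hdip1/2/3 turned (14 of 25 values positive). RPP4 (AT4G16860, chromosome 4, 9488466 to 9495837 on the minus strand in TAIR10.1) confers resistance to the oomycete that causes downy mildew. Its adjusted read counts were 1341 and 1359 in wild-type plants, 2210 and 3206 in hda19 plants and 2268 and 1809 in hdip1/2/3 plants. The wild-type libraries were nearly equal and lay below all 4 mutant libraries. The log2 fold change was 0.98 in hda19 (standard error 0.19, adjusted P = 0.044) and 0.58 in hdip1/2/3 (standard error 0.19, adjusted P = 0.094). With the length and GC trend removed it was 0.97 (adjusted P = 0.004) and 1.13 (adjusted P = 0.002). In hda19 the call did not hold in 11 of 15 alternatives, which include the omission of each library, a pseudocount of 0.1 and both rescalings. As stated above, the omissions and the pairwise fit left no gene of the whole table called, so those losses are not particular to RPP4. Its log2 fold change remained between 0.71 and 1.25 over the 15 alternatives.

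The upstream letters of the members that passed either rule, and of AT1G66090, were examined for the W box, the element bound by WRKY factors, which are transcription factors of the defence response. The W box was searched as TTGACC and TTGACT on both strands in the 250 bases before the annotated gene start, where 28.2% of all tested genes and 18 of 50 members (36%) had at least 1 match. The 2 searched words differ in their last letter, so they cannot match at the same place. The sequences are from the RefSeq assembly TAIR10.1, are written 5′ to 3′ on the strand of the gene, and have matches in capitals.
RPP4, chr4:9495838-9496087, minus strand: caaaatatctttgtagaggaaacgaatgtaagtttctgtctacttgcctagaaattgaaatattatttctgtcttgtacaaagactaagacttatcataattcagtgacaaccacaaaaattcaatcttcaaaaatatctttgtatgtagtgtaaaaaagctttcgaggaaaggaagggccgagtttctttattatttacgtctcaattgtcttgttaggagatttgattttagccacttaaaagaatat
AT1G57630, chr1:21345195-21345444, plus strand: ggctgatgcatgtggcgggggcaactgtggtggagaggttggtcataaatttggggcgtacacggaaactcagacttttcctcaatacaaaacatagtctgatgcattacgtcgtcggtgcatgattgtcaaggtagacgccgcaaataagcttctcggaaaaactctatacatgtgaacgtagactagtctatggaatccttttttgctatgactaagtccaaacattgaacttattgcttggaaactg
AT1G66090, chr1:24601783-24602032, plus strand: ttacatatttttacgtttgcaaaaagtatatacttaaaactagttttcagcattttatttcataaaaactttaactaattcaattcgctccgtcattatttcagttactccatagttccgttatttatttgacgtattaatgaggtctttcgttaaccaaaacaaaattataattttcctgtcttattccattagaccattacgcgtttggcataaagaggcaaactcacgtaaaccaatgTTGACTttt
RPP13, chr3:17133463-17133712, minus strand: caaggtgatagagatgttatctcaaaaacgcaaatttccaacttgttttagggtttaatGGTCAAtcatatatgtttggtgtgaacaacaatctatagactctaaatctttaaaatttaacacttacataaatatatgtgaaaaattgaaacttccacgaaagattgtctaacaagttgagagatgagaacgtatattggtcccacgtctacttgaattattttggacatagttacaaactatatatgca
AT1G66090 had 1 match that begins at position -9 and RPP13 had 1 that begins at position -191, counted from -1 at the base just before the gene start, while RPP4 and AT1G57630 had none in this window. By role, 9 of 25 TNL, 3 of 9 CNL, 1 of 5 helper and 5 of 11 TIR-only and TIR-NB genes had a match. These are matches of letters only, and binding was not measured.

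RPP5 (AT4G16950), the neighbour of RPP4 that gives its name to the locus, had 2160 and 2062 adjusted counts in wild-type plants, 2865 and 3626 in hda19 plants and 2582 and 2035 in hdip1/2/3 plants. The hda19 libraries exceeded both wild-type libraries, while those of hdip1/2/3 overlapped them. Its log2 fold change was 0.61 in hda19 (adjusted P = 0.101) and 0.12 in hdip1/2/3 (adjusted P = 0.646). After removal of the trend these became 0.66 (adjusted P = 0.027) and 0.96 (adjusted P = 0.005). Of all 150-nt windows of the RPP5 gene, 30.3% occur elsewhere in the genome, compared with 2.81% for RPP4 and 0.414% for SNC1, so unique mapping leaves part of RPP5 uncounted. RPP5 also overlaps AT4G16955 over 1031 bp.

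SNC1 (AT4G16890) lies between RPP4 and RPP5, and its gain-of-function allele activates defence without a pathogen. It had the highest level per length among the TNL genes, 1742 adjusted counts per kb of transcript in the wild type. The adjusted read counts were 9752 and 7308 in wild-type plants, 7673 and 9871 in hda19 plants and 6486 and 5012 in hdip1/2/3 plants. The hda19 libraries spanned the wild type, with a log2 fold change of 0.04, and those of hdip1/2/3 both lay below it, with a log2 fold change of -0.57 (standard error 0.20, adjusted P = 0.108). With the trend removed the value in hdip1/2/3 was 0.22 (adjusted P = 0.210), so that neither sign was called. The TIR-NB gene RLM3 (AT4G16990), at the other end of this locus, had log2 fold changes of 0.20 and -0.43 in hda19 and hdip1/2/3, and 0.19 and 0.09 with the trend removed.

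The TNL genes AT5G41750 and AT3G44400 were called only with the trend removed. AT5G41750 had 491 and 372 adjusted counts in wild-type plants, 717 and 777 in hda19 plants and 727 and 318 in hdip1/2/3 plants. Its hda19 libraries lay above the wild type (log2 fold change 0.80, adjusted P = 0.291), while the hdip1/2/3 libraries fell on either side of it (0.17, adjusted P = 0.770). With the trend removed the values were 0.81 (adjusted P = 0.037) and 0.92 (adjusted P = 0.021). The neighbouring gene AT5G41740 had values of 0.07 and -0.50 with the trend kept, and 0.09 and 0.08 with it removed. AT3G44400, at one end of the RPP1 region, had 435 and 468 adjusted counts in wild-type plants, 555 and 705 in hda19 plants and 559 and 467 in hdip1/2/3 plants, with log2 fold changes of 0.47 (adjusted P = 0.231) and 0.18 (adjusted P = 0.534), and 0.80 in hdip1/2/3 with the trend removed (adjusted P = 0.033). RMG1 (AT4G11170), a TNL gene known to be held down by DNA methylation, had the highest fold change of the members in hda19, 1.45 on the log2 scale, but with a standard error of 0.77 (adjusted P = 0.397). It was a low transcript, with 39.2 and 17.2 adjusted counts in wild-type plants, 52.6 and 101 in hda19 plants and 80.7 and 15.5 in hdip1/2/3 plants, and replicates of the same genotype differed as much as genotypes did.

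Among the CNL genes, 8 were tested and none was called at the adjusted threshold in either mutant. The median over them was 0.10 on the log2 scale in hda19 and -0.54 in hdip1/2/3, where all 8 values were negative. These medians became 0.09 and -0.10 with the trend removed, with 3 of 8 values positive in hdip1/2/3. RPP13 (AT3G46530), another downy mildew resistance gene, had 2234 and 1336 adjusted counts in wild-type plants, 1338 and 1718 in hda19 plants and 1021 and 657 in hdip1/2/3 plants. The hdip1/2/3 libraries both lay below the wild type, whose own replicates differed widely. The log2 fold change was -1.08 in hdip1/2/3 (standard error 0.29, adjusted P = 0.062) and -0.19 in hda19 (adjusted P = 0.814). Its value in hdip1/2/3 was -0.68 with the trend removed, and RPP13 was then the member called lower (adjusted P = 0.028). The annotated RPP13 gene overlaps AT3G46520 over 1167 bp.

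SUMM2 (AT1G12280), which watches the MEKK1-MPK4 kinase cascade, was below both wild-type libraries in all 4 mutant libraries. Its adjusted read counts were 1055 and 958 in wild-type plants, 683 and 848 in hda19 plants and 700 and 539 in hdip1/2/3 plants. The log2 fold changes of -0.40 (adjusted P = 0.308) and -0.71 (adjusted P = 0.056) did not pass the threshold, and with the trend removed they were -0.41 (adjusted P = 0.085) and -0.38 (adjusted P = 0.091). ZAR1 (AT3G50950), the CNL with the highest level per length at 1399 adjusted counts per kb in the wild type, had log2 fold changes of 0.30 and -0.38, the latter becoming -0.01 with the trend removed. The annotated ZAR1 gene overlaps AT3G08170 over 2367 bp and strand use in counting is not given, so its level is uncertain. RPM1 (AT3G07040), which like RPS2 watches RIN4, had values of 0.09 and -0.74, and RPP8 (AT5G43470) had values of 0.11 and -0.42, all with adjusted P values above the threshold. Without the trend their values in hdip1/2/3 were -0.19 and 0.09. RFL1 (AT1G12210) was the lowest of them, with 11 to 28 recovered reads per library, and its annotated gene overlaps AT1G12211 over 3042 bp.

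The helper NLRs were the role with the highest median in hda19, a log2 fold change of 0.50 with 5 of 5 positive values, and had a median of 0.03 in hdip1/2/3. Removing the trend gave medians of 0.47 and 0.37. None was called with the trend kept. ADR1 (AT1G33560) had 778 and 646 adjusted counts in wild-type plants, 1205 and 1230 in hda19 plants and 1057 and 820 in hdip1/2/3 plants. Every mutant library exceeded both wild-type libraries. The log2 fold change was 0.78 in hda19 (standard error 0.17, adjusted P = 0.057) and 0.39 in hdip1/2/3 (standard error 0.17, adjusted P = 0.161).

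ADR1-L1 (AT4G33300) behaved similarly, with 2222 and 1865 adjusted counts in wild-type plants, 2991 and 3432 in hda19 plants and 2726 and 2247 in hdip1/2/3 plants. Its log2 fold changes were 0.65 (adjusted P = 0.070) and 0.28 (adjusted P = 0.248). With the length and GC trend removed both genes were called in both mutants: ADR1 had a value of 0.78 in both (adjusted P = 0.003 in each), and ADR1-L1 had values of 0.66 (adjusted P = 0.004) and 0.83 (adjusted P = 0.001). The ADR1-L1 gene overlaps AT4G08785 over 1944 bp.

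The third member of the ADR1 family, ADR1-L2 (AT5G04720), had 1647 and 1614 adjusted counts in wild-type plants, 1809 and 2047 in hda19 plants and 1941 and 1422 in hdip1/2/3 plants. Its log2 fold changes were 0.24 and 0.03, with adjusted P values of 0.540 and 0.937. NRG1.1 (AT5G66900) had 973 and 834 in wild-type plants, 913 and 1055 in hda19 plants and 719 and 721 in hdip1/2/3 plants. The hdip1/2/3 libraries of NRG1.1 lay below the wild type (log2 fold change -0.32, adjusted P = 0.181), and those of hda19 overlapped it (0.12, adjusted P = 0.741). NRG1.2 (AT5G66910) had 617 and 406 in wild-type plants, 649 and 768 in hda19 plants and 680 and 381 in hdip1/2/3 plants, with log2 fold changes of 0.50 (adjusted P = 0.473) and 0.03 (adjusted P = 0.974). None of these 3 helper genes was called with the trend removed, when their values in hdip1/2/3 were 0.37, -0.02 and 0.34.

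The TIR-only and TIR-NB genes differ from the sensors in having mostly short transcripts, and their medians were 0.02 in hda19 and 0.32 in hdip1/2/3. These medians were -0.02 and 0.13 with the trend removed. Of the 11 genes, 1 was then called higher in hda19 and 2 in hdip1/2/3 (all genes 4.96% and 6.51%). With the trend kept, 0 and 1 were called higher (all genes 2.15% and 4.35%). AT1G57630 (chromosome 1, 21345445 to 21346157 on the plus strand) has 1 exon and encodes a TIR protein of 172 amino acids. It had 89.5 and 103 adjusted counts in wild-type plants, 179 and 249 in hda19 plants and 346 and 285 in hdip1/2/3 plants. The wild-type libraries were lowest, the hda19 libraries intermediate and the hdip1/2/3 libraries highest, without overlap. The log2 fold change was 1.70 in hdip1/2/3 (standard error 0.25, adjusted P = 0.015) and 1.13 in hda19 (standard error 0.25, adjusted P = 0.064). Removal of the trend gave 1.30 (adjusted P = 0.014) and 1.096 (adjusted P = 0.032). The call in hdip1/2/3 did not hold in 8 of 15 alternatives, namely the omission of each of the 6 libraries, the pairwise fit and the fit without a filter on low values. As stated above, the omissions and the pairwise fit left no gene of the whole table called, so those losses are not particular to AT1G57630. Its log2 fold change remained between 1.30 and 1.84 over the 15 alternatives.

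AT1G66090, which encodes a TIR-NBS protein of 429 amino acids, had 262 and 259.9 adjusted counts in wild-type plants, 386 and 468 in hda19 plants and 583 and 397 in hdip1/2/3 plants. All mutant libraries exceeded the wild type, with log2 fold changes of 0.70 (adjusted P = 0.154) and 0.88 (adjusted P = 0.055). Removal of the trend gave 0.65 (adjusted P = 0.088) and 0.75 (adjusted P = 0.046).

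**Figure D3:**
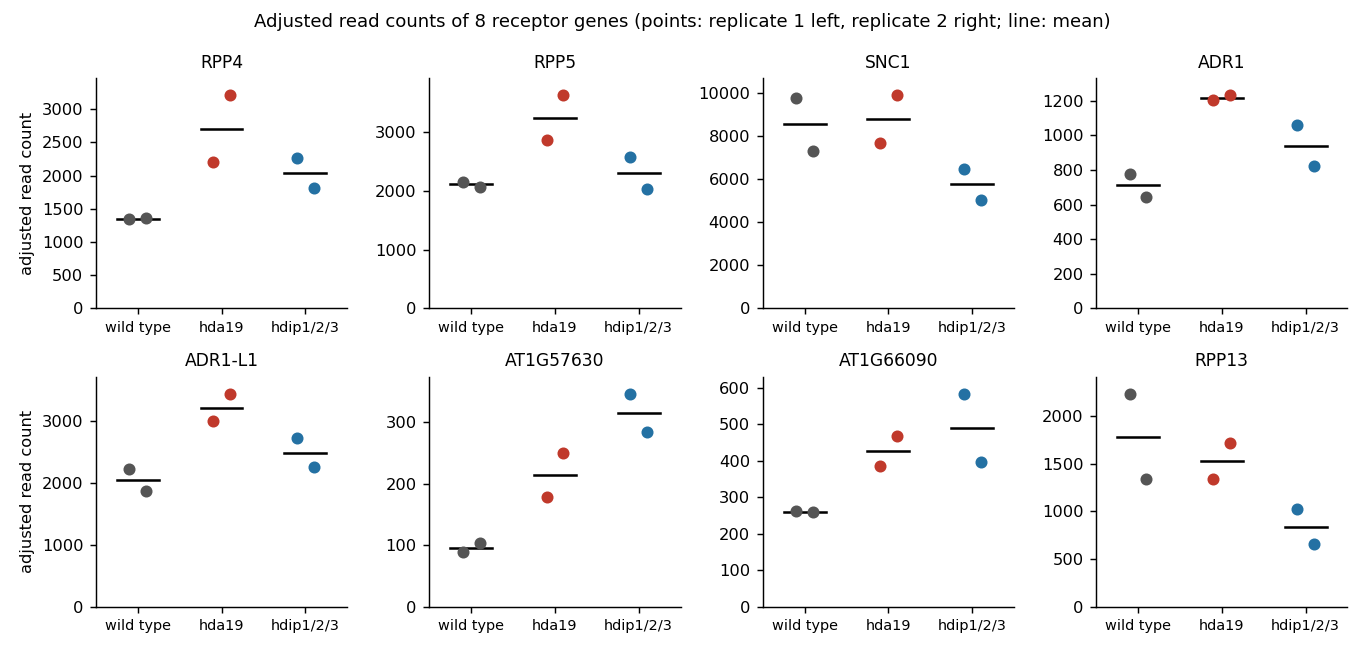
Adjusted read counts (y axis, from 0) in the 2 libraries of each genotype (x axis) for 8 receptor genes, with points for libraries and lines for means. For RPP4, ADR1, ADR1-L1, AT1G57630 and AT1G66090 all 4 mutant libraries lie above the wild type, whereas for SNC1 and RPP13 only the hdip1/2/3 libraries are apart from it, on the lower side.

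A run of 6 TIR genes lies within 13.9 kb on chromosome 1 (27429916 to 27443859), and its members did not move together. TIR (AT1G72930), a 176-residue TIR protein with by far the highest level per length of all members, 9161 adjusted counts per kb in the wild type, had 8592 and 11268 adjusted counts in wild-type plants, 8848 and 8435 in hda19 plants and 11423 and 13146 in hdip1/2/3 plants. The hdip1/2/3 libraries were the highest and those of hda19 overlapped the wild type, with log2 fold changes of 0.32 (adjusted P = 0.216) and -0.19 (adjusted P = 0.630). With the trend removed the values of TIR were 0.06 in hdip1/2/3 and -0.22 in hda19. AT1G72900, near one end of the run, had values of 0.80 in hda19 and 0.61 in hdip1/2/3 (adjusted P = 0.199 in each), while its neighbour AT1G72910 had values of -0.36 and -0.22. Removal of the trend gave 0.76 and 0.47 for AT1G72900, and -0.41 and -0.30 for AT1G72910. Over the 6 genes the log2 fold changes ranged from -0.36 to 0.80 in hda19, with 3 positive, and from -0.22 to 0.61 in hdip1/2/3, with 5 positive. These ranges became -0.41 to 0.76, with 2 positive, and -0.30 to 0.47, with 5 positive, with the trend removed.

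In the RPP4/RPP5 locus, 4 members within 77.1 kb of chromosome 4 had values between 0.04 and 0.98 in hda19 and between -0.57 and 0.58 in hdip1/2/3. The latter became 0.09 to 1.13 with the trend removed. This locus also holds 5 NLR and TIR genes that are not members, 4 of them tested and none called. Their values lay between -0.91 (AT4G16940) and 0.29 (AT4G16960) in hda19. In hdip1/2/3 they lay between -0.96 (AT4G16940) and 0.05 (AT4G16920), or -0.14 and 0.89 with the trend removed. The 5 members of the RPS6 cluster on chromosome 5 (18835605 to 18872494), which includes the receptor RPS6 (AT5G46470) that responds to a bacterial effector, had values between -0.05 and 0.48 in hda19 and between -0.80 and -0.12 in hdip1/2/3, where all 5 were negative, the latter becoming -0.13 to 0.53 (4 of 5 positive) with the trend removed. In the RPP1 region on chromosome 3, 4 members within 177 kb had values between -0.20 and 0.47 in hda19 and between -0.98 and 0.18 in hdip1/2/3. The latter became -0.31 to 0.80 (1 of 4 positive) with the trend removed. Several genes of these clusters share sequence: 58.1% of the windows of VICTR (AT5G46520), 41.0% of those of VICTL (AT5G46510) and 22.0% of those of RPP1 (AT3G44480) occur elsewhere in the genome, and their counts are uncertain. These shares are for windows of 150 nt and would be larger for shorter reads, and the labels and the methods differ in read length.

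Some receptors work as pairs encoded side by side, and the ratio of the 2 partners was examined per kb of transcript. RPS4 (AT5G45250) and RRS1 (AT5G45260), which together recognise an effector of Pseudomonas, lie 27 bp apart, head to head on opposite strands. RPS4 had 939 and 537 adjusted counts in wild-type plants, 708 and 872 in hda19 plants and 561 and 369 in hdip1/2/3 plants. RRS1 had 1145 and 839.5 in wild-type plants, 770.4 and 1005 in hda19 plants and 682 and 532 in hdip1/2/3 plants. The ratio of RPS4 to RRS1 was 1.18 and 0.92 in wild-type plants, 1.32 and 1.24 in hda19 plants and 1.18 and 0.99 in hdip1/2/3 plants. Both hda19 ratios lay above those of the wild type, a difference that was not tested, while those of hdip1/2/3 did not lie apart from it. Neither gene was called, with log2 fold changes of 0.15 and -0.64 for RPS4 (adjusted P = 0.872 and 0.193) and -0.16 and -0.70 for RRS1 (adjusted P = 0.789 and 0.082) in hda19 and hdip1/2/3. With the trend removed, the values in hdip1/2/3 were -0.01 for RPS4 and 0.12 for RRS1.

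CSA1 (AT5G17880) and CHS3 (AT5G17890), a pair in which CHS3 carries additional domains of the DA1 family, lie 3544 bp apart, also head to head. CSA1 had 1103 and 810.2 adjusted counts in wild-type plants, 816 and 1093 in hda19 plants and 709.8 and 461 in hdip1/2/3 plants. CHS3 had 2218 and 1266 in wild-type plants, 1601 and 1894 in hda19 plants and 1353 and 885 in hdip1/2/3 plants. The ratio of CSA1 to CHS3 lay between 0.66 and 0.85, and the genotypes overlapped for it. The log2 fold changes in hdip1/2/3 were -0.72 for CSA1 (adjusted P = 0.109) and -0.61 for CHS3 (adjusted P = 0.194), and those in hda19 were -0.0012 and 0.06. With the trend removed, the values in hdip1/2/3 were -0.10 for CSA1 and 0.22 for CHS3.

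For SOC3 (AT1G17600) and CHS1 (AT1G17610), 3193 bp of the annotated genes overlap on opposite strands, so reads cannot be assigned to them without strand information and both levels are uncertain. SOC3 had 404 and 237 adjusted counts in wild-type plants, 222 and 288 in hda19 plants and 271 and 163 in hdip1/2/3 plants. CHS1 had only 8.05 and 13.1 in wild-type plants, 10.3 and 8.85 in hda19 plants and 13.9 and 2.51 in hdip1/2/3 plants. The ratio of SOC3 to CHS1 varied between 9.21 and 33.2 over libraries, with replicates of the same genotype as far apart as genotypes.

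The mutants were compared with each other in the same fit. None of 49 members, and 0% of all genes, passed the adjusted threshold (lowest adjusted P = 0.188 by limma-trend). At an unadjusted P value under 0.05, 21 members were higher in hda19 and 3 were lower, against 11.8% and 10.1% of all genes. All 25 TNL genes had a positive difference, with a median of 0.63. A positive difference was also found in 50.2% of all genes tested and in 94.1% of those of 3000 nt or more. With the trend removed, 13 of the 25 TNL genes had a positive difference, with a median of 0.01. Among members of 3000 nt or more, 57.6% were higher in hda19 at this unadjusted level, compared with 56.3% of all genes of that length. The largest difference among those at this level was that of AT3G44670, a TNL gene of the RPP1 region, at 1.06 (interval 0.09 to 2.03 at 95% confidence). For RPP4 the difference was 0.39 (interval -0.06 to 0.84) and for AT1G57630 it was -0.57 (interval -1.16 to 0.02). In all, 25 of 49 intervals included 0. The median difference of the members was 0.55 with the trend kept and 0.01 with it removed.

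**Figure D4:**
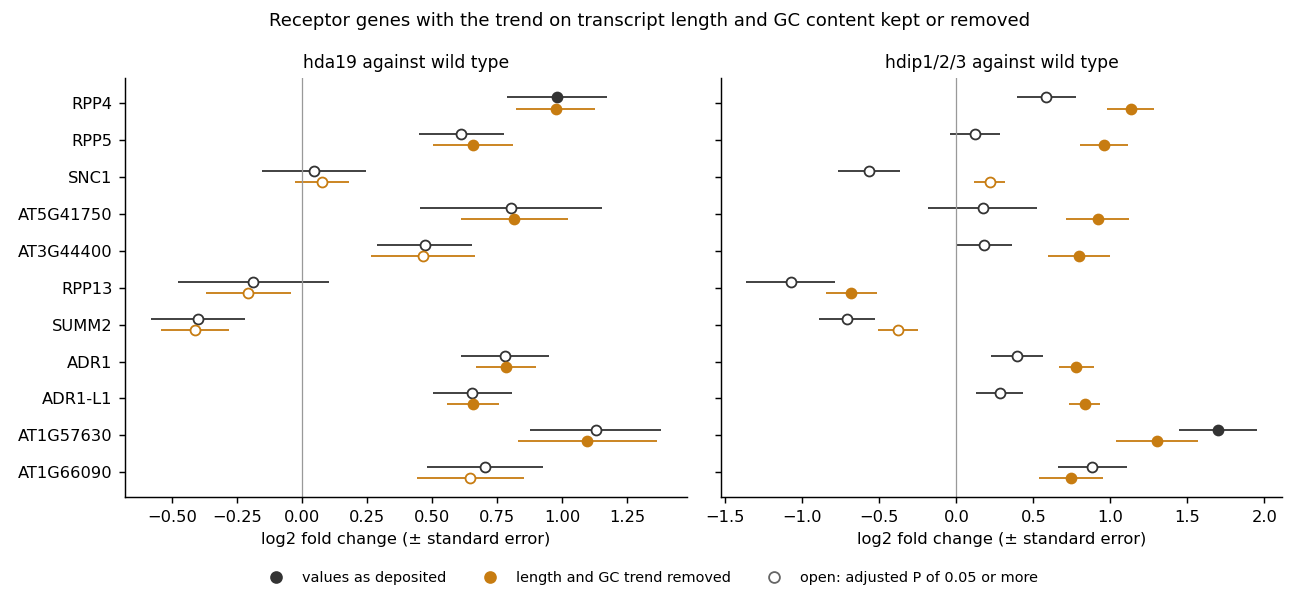
Log2 fold change with its standard error (x axis) of 11 receptor genes (y axis) in hda19 (left) and hdip1/2/3 (right), with the length and GC trend kept (black) or removed (orange), filled where the adjusted P value was under 0.05. In hda19 the 2 values of each gene nearly coincide, whereas in hdip1/2/3 SNC1 goes from -0.57 to 0.22 and ADR1-L1 from 0.28 to 0.83.

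Likeness to SNC1 across the 6 libraries was examined as a description. The 5 closest genes were AT4G00800 (SETH5), AT5G12400, AT5G28530 (FRS10), AT2G17930 and AT3G54790, with Pearson correlations of log2 values between 0.998 and 0.999, and their transcripts measure from 2946 to 12118 nt. Of the other 48 members, 23 had a correlation above 0.9 with SNC1, and so did 2394 of 23684 genes overall. The members are longer (median 3644 nt against 1615 nt over all genes tested), and long transcripts shared an order of libraries across the genome. The share above 0.9 among long genes, or with the trend removed, was not computed. The higher share of members is therefore not a result about receptors.

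Besides these members, the annotation names 139 further NLR and TIR genes, of which 118 were tested. Their medians, 0.09 in hda19 and -0.42 in hdip1/2/3, were close in size to those of the members. In hda19, 1 rose and 0 fell, where 2.15% of all genes were called higher and 0.688% lower. For hdip1/2/3, 0 rose and 2 fell, where 4.35% of all genes were called higher and 2.82% lower. The 3 genes are named here because they were the only ones called, after their values had been seen. The CNL gene AT1G58400 had 24.1 and 25.3 adjusted counts in wild-type plants, 80.3 and 128 in hda19 plants and 35.9 and 37.3 in hdip1/2/3 plants, a log2 fold change of 2.00 in hda19 (adjusted P = 0.035). AT1G72840, a TNL gene, fell by 1.23 on the log2 scale in hdip1/2/3 (adjusted P = 0.029), and the CNL gene AT1G62630 fell by 0.999 (adjusted P = 0.047). With the trend removed AT1G72840 had a value of -0.58 (adjusted P = 0.132 by limma-trend). AT1G58400 still had a value of 1.97 in hda19 (adjusted P = 0.013), and AT1G62630 one of -0.59 in hdip1/2/3 (adjusted P = 0.017). Of the 118, 3 were then called higher and 0 lower in hda19, and 5 higher and 1 lower in hdip1/2/3 (all genes 4.96% and 3.21%, and 6.51% and 3.89%).

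Transcripts of the proteins through which these receptors act or by which they are restrained were measured in the same libraries. Of 25 such genes, 1 rose and 0 fell in each mutant (all genes 2.15% higher and 0.688% lower in hda19, and 4.35% and 2.82% in hdip1/2/3), and it was PAD4 (AT3G52430) in both, the partner of EDS1 in the pathway that ends at the ADR1 helpers. PAD4 had 860 and 848 adjusted counts in wild-type plants, 1381 and 1326 in hda19 plants and 1732 and 1574 in hdip1/2/3 plants. All mutant libraries exceeded the wild type, with log2 fold changes of 0.66 (adjusted P = 0.035) and 0.95 (adjusted P = 0.010). EDS1 (AT3G48090) had log2 fold changes of 0.53 (adjusted P = 0.315) and 0.07 (adjusted P = 0.879), and SAG101 (AT5G14930) had 0.68 (adjusted P = 0.128) and 0.30 (adjusted P = 0.341). Among factors that limit NLR levels, CPR1 (AT4G12560), an F-box protein that targets SNC1 for degradation, had values of -0.01 and -0.24, and SRFR1 (AT4G37460) had values of -0.06 and -0.67, none of them called. In hdip1/2/3 CPR1 had a value of -0.30 and SRFR1 one of -0.05 with the trend removed. With the trend removed, 3 partners were called higher and 0 lower in each mutant (all genes 4.96% higher in hda19 and 6.51% in hdip1/2/3), PAD4 among them, with SAG101 and the kinase gene PBL2 in hda19, and the kinase gene MPK4 and the corepressor gene TPR1 in hdip1/2/3.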

How the data were processed

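RNA-seq values of 6 libraries (wild type, hda19 and hdip1/2/3, 2 each, grouped by sample labels) were used. The deposited signal values are read counts per gene that the authors made by mapping to TAIR10 with HISAT2, counting uniquely mapped reads with featureCounts and adjusting to a common library size, the form of edgeR's quantile-adjusted counts as judged from the values. The labels describe single-end reads and the methods longer, paired-end reads. Undoing the adjustment gave values within 0.1 of whole reads for 195288 of 195288 values. Strand use in counting is not given in the sources used here. All 32548 identifiers matched RefSeq TAIR10.1, the source of names, lengths, positions and sequences. The positions are those of TAIR10.1.

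The 23685 genes whose mean reached 1 in any genotype were tested on log2(value + 1), a scale that understates changes of low genes, with limma-trend (limma 3.58.1, R 4.3.3), 6 libraries in 1 fit, genotype only, and Benjamini-Hochberg adjustment. Calls were adjusted P values under 0.05. Lowess trends (span 0.3) on transcript length and GC content were removed as an alternative. The fit and the recovery of whole reads were tested on simulated counts. Those counts held no trend on transcript length or GC content, so the removal of the trend was not tested on them. Python 3.11.15 and matplotlib 3.10.9 made summaries and plots.

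By rule, members passing either call rule, the helper NLRs and both genes of each head-to-head pair are given in every library. RPP5, SNC1, AT5G41750, AT3G44400, RMG1, SUMM2, AT1G66090, TIR and AT1G72940 were added after their values had been seen. Members and lists were chosen with earlier results of these data known. The values of 1 further member, counted in the totals, are not reported here.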

Additional observations from a re-analysis of the deposited data

Results flagged for a closer look

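In the TIR gene AT1G72940 the hda19 libraries both lay below the wild type and the hdip1/2/3 libraries both lay above it. It had 500 and 545 adjusted counts in wild-type plants, 421 and 434 in hda19 plants and 599 and 609.97 in hdip1/2/3 plants. The difference between hda19 and hdip1/2/3 was -0.50 on the log2 scale (interval -0.84 to -0.16 at 95% confidence), with an unadjusted P value of 0.010 and an adjusted P value of 0.188 by limma-trend, so it did not pass the adjusted threshold. With the length and GC trend removed the difference was -0.47.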

How the results depend on the processing

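The number of members called depended on the processing. In hda19 (1 in the values as deposited) it was 0 with a pseudocount of 0.1, without a filter on low values, with equal library totals, with median-of-ratios scaling and in the pairwise fit, 2 with limma-voom on recovered reads (RPP4 and ADR1), 4 with a mean of at least 10, and 6 with the length and GC trend removed. In hdip1/2/3 (1 as deposited) it was 0 without a filter and in the pairwise fit, 2 by the fold rule, 4 with limma-voom and with a mean of at least 10 (2 higher and 2 lower in each, SUMM2 and RPP13 being lower), and 9 with the trend removed. Between the mutants it was 0, or 1 by the fold rule. With a replicate block the counts were 2 in hda19 (RPP4 and ADR1), 2 in hdip1/2/3 (AT1G57630 and RPP13) and 2 for the partners in hdip1/2/3; the numbers share only a label, since deviations of same-numbered libraries correlated at -0.08, 0.13 and -0.07. Omitting each library gave 0 in each count (range 0 to 0) and medians of the members between -0.09 and 0.34 in hda19 and between -0.70 and -0.19 in hdip1/2/3, the latter being 0.088 with the trend removed. For the other NLR and TIR genes, the count in hda19 (1) was 0 with a pseudocount of 0.1, without a filter and in the pairwise fit, 3 with the trend removed and 12 by the fold rule, and in hdip1/2/3 (2) it was 1 with a pseudocount of 0.1, equal totals or median-of-ratios scaling, 0 without a filter and in the pairwise fit, 5 with a mean of at least 10, 6 with the trend removed and 12 by the fold rule. For the partners, the count in hda19 (1) was 0 without a filter and in the pairwise fit, 2 with limma-voom, with a mean of at least 10 and by the fold rule, and 3 with the trend removed, and in hdip1/2/3 (1) it was 0 without a filter and in the pairwise fit, 3 with limma-voom and with the trend removed, and 5 with a mean of at least 10. Of 784 values of single members under an alternative in each mutant, 52 in hda19 and 33 in hdip1/2/3 changed sign without a call, and no called value changed sign. The causes were not tested. Depth limits CHS1, RFL1 and RMG1, which had 2 to 13, 11 to 28 and 13 to 113 reads per library. Without a filter on low values, 91 of 32548 genes were called in hda19 and 67 in hdip1/2/3. For limma-voom, a mean of at least 10, a replicate block, a pseudocount of 0.1 and the rescalings, the share of all genes called is not given. The counts under these settings therefore cannot be set against the whole table, and a larger count may go with more calls everywhere.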
